A study of Mus musculus with 17 samples.

Results

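Transcripts of 26 genes of cholesterol synthesis and its control were followed across 4 populations of sorted mouse germ cells. The genes were taken as a fixed list of symbols, chosen with earlier results of these data known. All 26 were found among the 24013 genes of the count table and passed the filter on low counts. By role, 6 of them encode enzymes of the mevalonate steps (Acat2, Hmgcs1, Mvk, Pmvk, Mvd and Idi1), 2 the prenyl steps (Fdps and Ggps1), 3 the steps through squalene to lanosterol (Fdft1, Sqle and Lss) and 8 the steps after lanosterol (Cyp51, Tm7sf2, Msmo1, Nsdhl, Hsd17b7, Ebp, Sc5d and Dhcr7). A further 5 encode the SREBP transcription factors and their regulators (Srebf1, Srebf2, Scap, Insig1 and Insig2), and 2 encode other known SREBP targets (Stard4 and Lpin1).

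Cells build cholesterol from acetyl-CoA through mevalonate, isoprenoid units, squalene and lanosterol, and the last enzymes trim lanosterol to cholesterol. The SREBP factors are made as membrane precursors that SCAP escorts from the endoplasmic reticulum when sterols are scarce, whereas INSIG proteins hold SCAP back when sterols are plentiful. Released SREBP activates genes of the pathway through sterol regulatory elements, often beside CCAAT boxes. In the testis the pathway also makes sterol intermediates that accumulate in germ cells, and later germ cells are known to carry Cyp51 transcripts and a short form of Srebf2.

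RNA was sequenced from 17 libraries of testis cells from Tert-Tomato/+ reporter mice of a B6/J X B6/N mixed background, which all groups shared. The P6gonocyte group (n = 4) held TERT-positive, OCT4-GFP-positive gonocytes of neonates at day 6. Adult TERT-high cells were divided into Kit-positive cells (KITpos, n = 5), Kit-negative cells that were GFRA1-positive (GFRA1pos, n = 4) and Kit-negative cells that were GFRA1-negative (GFRA1neg, n = 4). GFRA1 is a receptor for the niche factor GDNF and marks stem-like spermatogonia, and Kit marks differentiating ones. The labels do not say that libraries of a group came from separate animals, so the spread behind each p-value may be partly or wholly technical. The neonatal group differs from the adult groups in both age and gate, and these cannot be told apart.

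Total counts ran from 6479216 to 8468203 in P6gonocyte, 5178352 to 8300165 in KITpos, 10918223 to 11567191 in GFRA1pos and 9965437 to 12641907 in GFRA1neg libraries. Levels are given as CPM, that is counts as a share of the library size after TMM scaling. In the adult groups the sorted markers stood where the gates placed them: Kit had 266 to 453 CPM in KITpos and at most 49.3 CPM in either adult Kit-negative group, and Gfra1 had 355 to 426 CPM in GFRA1pos and at most 25.6 CPM in GFRA1neg libraries. P6gonocyte libraries, whose label names neither gate, had 166 to 231 CPM of Kit and 118 to 157 CPM of Gfra1. GFRA1pos libraries had 12.6 to 20.8 CPM of Kit, so P6gonocyte and GFRA1pos differed in Kit as well as in age. The germ cell gene Ddx4 was at 100.4 CPM or more in every library. Replicate 2 of P6gonocyte stood apart, with 136 CPM summed over 7 Sertoli cell markers (group median 48.9 CPM) and 5.53 CPM of Pou5f1, the gene of the OCT4 reporter (group mean 19.7 CPM). Transcripts of 6 spermatid genes summed to 955 CPM in KITpos replicate 1, 1334 and 634 CPM in GFRA1pos replicates 2 and 4, and 1092 CPM in GFRA1neg replicate 2. Counts of called sterol genes are given with and without these libraries, and results of the other gene lists are given with them only.

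Promoter sequences were available for 22 of the 26 genes, as 30 RefSeq promoters of the GRCm38.p6 build that reach from 250 bases before to 50 bases after a transcription start. Of these, 4 are shown, from among the genes that set the neonatal cells or the KITpos cells apart. Acat2, Nsdhl, Insig1 and Sc5d also did so, and their promoters are not shown. Every P6gonocyte library was above every adult library in Idi1, Msmo1 and Hmgcs1, and every KITpos library was below every other library in Srebf2. Capitals mark TCACNCCA, a core of the sterol regulatory element, and CCAAT, the box bound by NF-Y, read on either strand so that ATTGG is CCAAT on the other strand.
Idi1, chr13:8885356-8885655, plus strand: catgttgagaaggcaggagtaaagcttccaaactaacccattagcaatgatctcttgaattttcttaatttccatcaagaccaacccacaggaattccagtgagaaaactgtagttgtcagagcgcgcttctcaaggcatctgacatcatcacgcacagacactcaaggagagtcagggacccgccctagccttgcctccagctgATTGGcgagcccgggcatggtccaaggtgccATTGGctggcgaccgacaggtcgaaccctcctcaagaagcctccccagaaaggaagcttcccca
Msmo1, chr8:64733529-64733828, minus strand: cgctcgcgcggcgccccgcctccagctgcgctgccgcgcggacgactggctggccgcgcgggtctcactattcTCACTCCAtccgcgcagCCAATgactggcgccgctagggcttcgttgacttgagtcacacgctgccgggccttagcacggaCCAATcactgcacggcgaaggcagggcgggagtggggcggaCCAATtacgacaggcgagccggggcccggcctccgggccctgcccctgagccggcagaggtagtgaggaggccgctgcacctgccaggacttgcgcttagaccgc
Hmgcs1, chr13:119690101-119690400, plus strand: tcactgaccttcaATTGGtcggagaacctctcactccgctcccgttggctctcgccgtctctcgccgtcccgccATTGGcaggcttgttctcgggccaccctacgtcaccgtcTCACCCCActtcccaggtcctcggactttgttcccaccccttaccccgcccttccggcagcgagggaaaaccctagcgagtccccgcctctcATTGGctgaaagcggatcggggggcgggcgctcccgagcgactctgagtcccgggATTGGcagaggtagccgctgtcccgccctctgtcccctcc
Srebf2, chr15:82147019-82147318, plus strand: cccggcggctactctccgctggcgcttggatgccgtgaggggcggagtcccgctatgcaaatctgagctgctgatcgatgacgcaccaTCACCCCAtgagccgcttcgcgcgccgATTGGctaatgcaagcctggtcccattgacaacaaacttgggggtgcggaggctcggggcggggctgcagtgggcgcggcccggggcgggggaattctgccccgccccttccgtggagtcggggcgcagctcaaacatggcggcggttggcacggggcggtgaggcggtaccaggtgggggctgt
The Hmgcs1 promoter held 1 TCACNCCA and 4 CCAAT matches, Msmo1 held 1 and 3, Srebf2 held 1 and 1, and Idi1 held 2 CCAAT matches and no TCACNCCA.

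On either strand, TCACNCCA was found in 3 of the 30 sterol gene promoters (10.0%) and in 4.36% of all 32851 promoters. Those 3, of Hmgcs1, Msmo1 and Srebf2, are all among the 4 shown, so the sequences shown do not stand for the whole list. The longer TCACNCCAC, which contains TCACNCCA, was in the Hmgcs1 promoter alone among these 30 and in 1.24% of all. CCAAT was in 20 of the 30 (66.7%, in 19 of 22 genes), against 37.4% of all promoters. The GC box GGGCGG was in 76.7% of the 30 and 35.7% of all, and the E-box CACGTG in 20.0% of the 30 and 7.15% of all. These are matches of letters within the windows, and the counts on which the other results rest were made on another build, so no position was carried between them.

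Levels can be compared between genes only per length, as mean CPM per kilobase of exon. On that scale the median of the 26 genes was 18.1 in P6gonocyte, 15.2 in KITpos, 12.5 in GFRA1pos and 15.2 in GFRA1neg. Fdft1, squalene synthase, led in 3 of the 4 groups, at 77.8 in P6gonocyte, 73.1 in GFRA1pos and 88.0 in GFRA1neg. In KITpos it stood at 52.1, close to Fdps, farnesyl diphosphate synthase, at 53.2. Insig1 (75.3, 44.4, 61.3 and 54.5 CPM per kilobase in P6gonocyte, KITpos, GFRA1pos and GFRA1neg) was also among the most abundant.

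The lowest were Ebp, the sterol isomerase, and Tm7sf2, a sterol C14 reductase. Ebp had means of 0.608, 0.703, 0.704 and 0.331 CPM per kilobase in P6gonocyte, KITpos, GFRA1pos and GFRA1neg, and Tm7sf2 had 0.835, 1.72, 0.800 and 1.27. The counts behind them are few, and their fold changes had the largest standard errors of the list. Both have relatives outside it. Lbr, which carries the other C14 reductase activity, had 117 ± 19.7 CPM in GFRA1pos and 64.7 ± 7.08 CPM in GFRA1neg (SD, n = 4 each). The Ebp relative Ebpl had 28.2 ± 6.34 CPM in KITpos (SD, n = 5), against 10.6 ± 1.09 CPM in GFRA1pos and 6.06 ± 0.986 CPM in GFRA1neg (SD, n = 4 each).

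The spread among replicates was widest in KITpos, where the median coefficient of variation of the 26 genes was 21.5%, against 13.2% in P6gonocyte, 13.0% in GFRA1pos and 12.6% in GFRA1neg. Summed over the 19 enzyme genes, CPM ran from 1309 to 1568 in P6gonocyte, 977 to 1266 in KITpos, 1042 to 1128 in GFRA1pos and 1188 to 1481 in GFRA1neg libraries. The P6gonocyte sums lay above every KITpos and GFRA1pos sum and overlapped those of GFRA1neg. The heatmap of all 26 genes shows that they did not share one pattern across the groups.

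**Figure D1:**
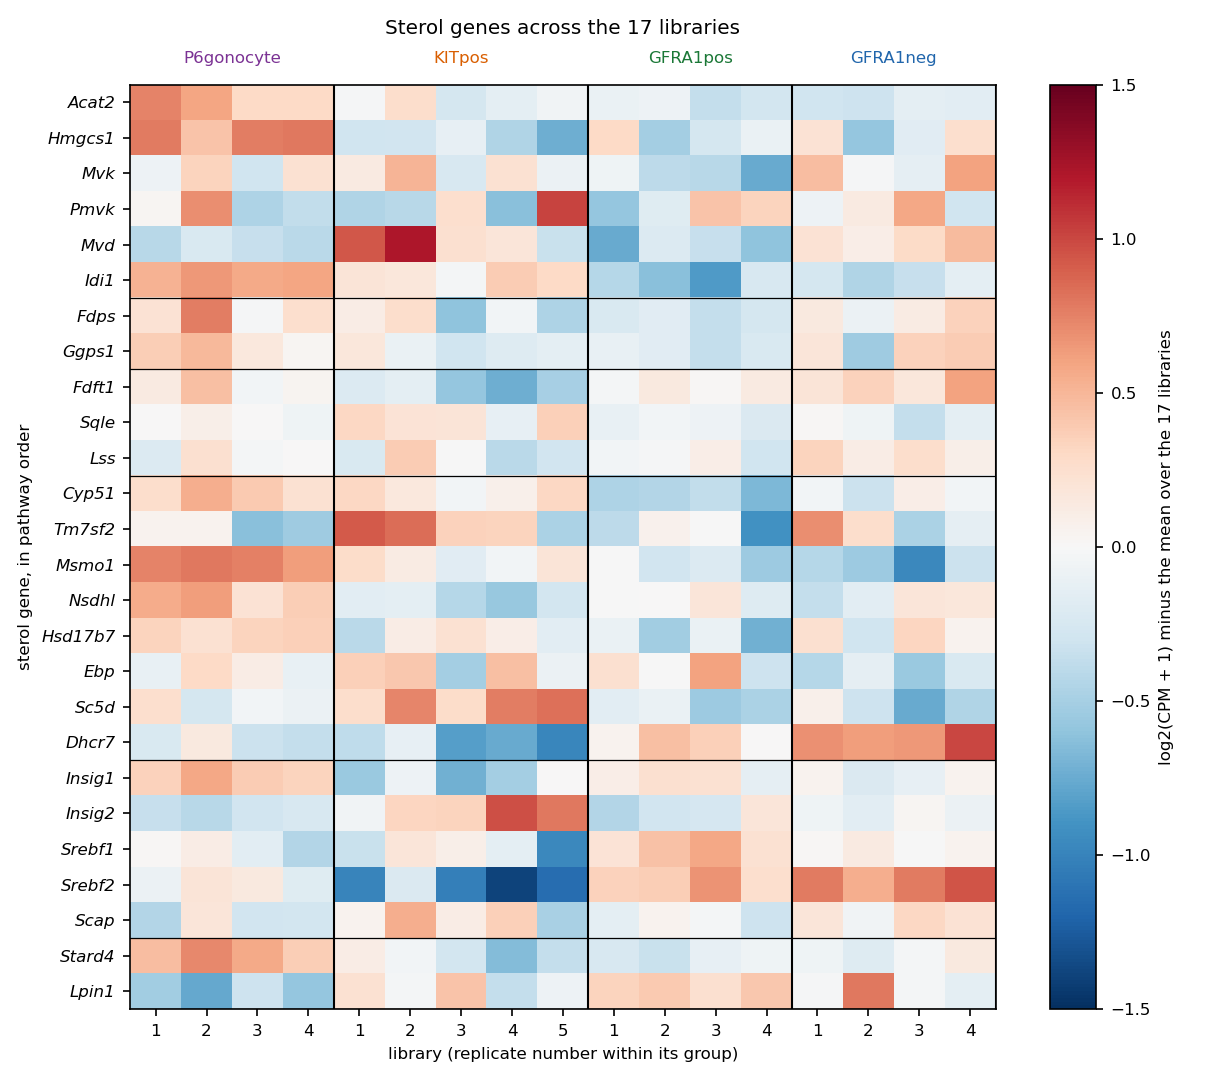
Level of each of the 26 sterol genes (one per line, in pathway order from the top) in each of the 17 libraries (columns, by group and replicate number), as log2(CPM + 1) minus the gene's mean over the 17 libraries; red is above the mean and blue below. The P6gonocyte columns are red for Acat2, Hmgcs1, Idi1, Msmo1, Nsdhl, Insig1 and Stard4, and the KITpos columns are blue for Srebf2, Dhcr7 and Fdft1.

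**Figure D2:**
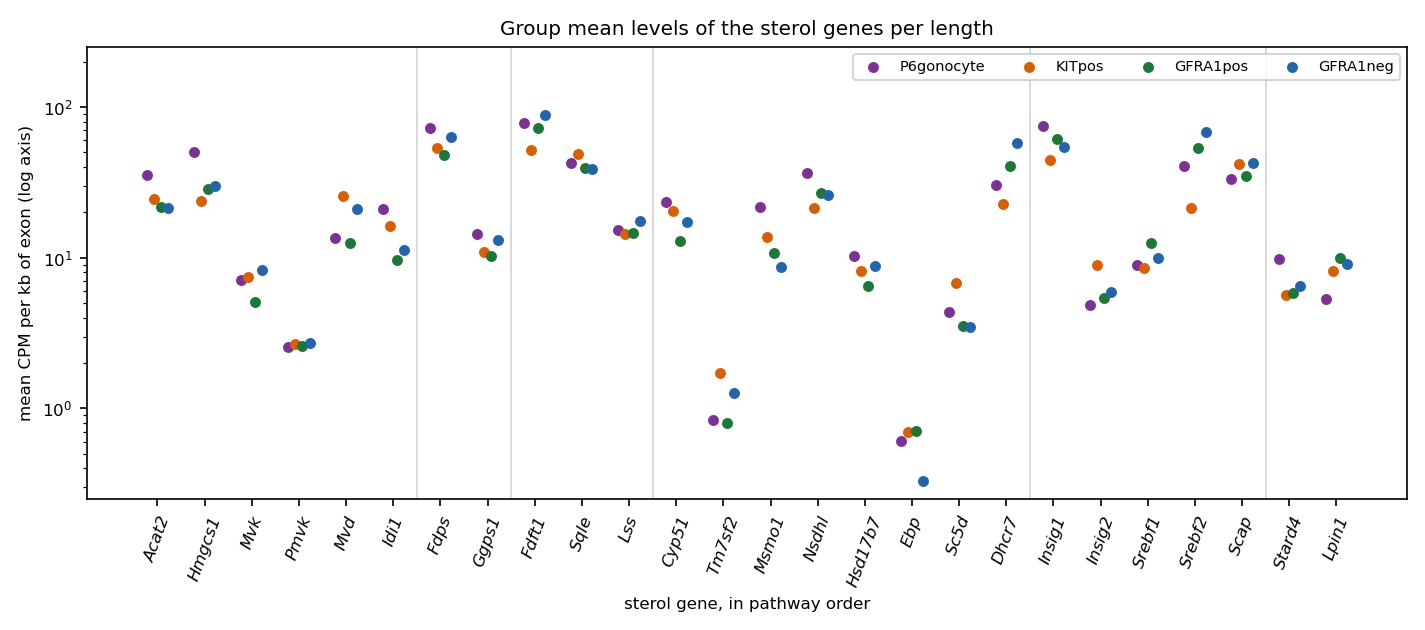
Group mean of each sterol gene in CPM per kilobase of exon (log axis), by gene in pathway order; each point is the mean of 4 libraries (5 for KITpos). Fdft1, Fdps and Insig1 lie near the top in every group, and Ebp and Tm7sf2 lie lowest.

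P6gonocyte was compared with GFRA1pos to see how neonatal gonocytes differ from the adult GFRA1-positive cells. In the neonatal cells 10 of the 26 sterol genes were higher and 1 was lower. Those that rose were Idi1, Msmo1, Cyp51, Hmgcs1, Stard4, Acat2, Hsd17b7, Fdps, Ggps1 and Nsdhl, with log2 fold changes from 0.46 to 1.13, and Lpin1 fell by 0.91 on the log2 scale. By role, 3 belong to the mevalonate steps, 2 to the prenyl steps, 4 to the steps after lanosterol and 1 (Stard4) to the other SREBP targets, while none of the 3 genes from squalene to lanosterol and none of the 5 SREBP regulators passed the test. In bulk samples of this kind, fewer cells of a type and less RNA per cell cannot be told apart.

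The test was edgeR's quasi-likelihood test with Benjamini-Hochberg adjustment over 15451 genes, and a gene was called at an adjusted p under 0.05. The share called was 42.3% of the sterol genes and 39.2% of all genes tested. The share called higher was 38.5% of the sterol genes and 17.3% of all genes, and the share called lower was 3.85% and 21.9%. Their median log2 fold change was 0.21, against -0.05 for all genes. P6gonocyte and GFRA1pos libraries were fully apart for 14 of the 26 genes (53.8%), against 41.5% of all genes, and for 11 of the 14 the P6gonocyte libraries were the higher. With upper-quartile scaling the counts were 10 higher and 3 lower, with Dhcr7 and Srebf1 joining Lpin1.

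Sertoli cell transcripts moved with this comparison: 5 of 6 tested markers were higher in P6gonocyte, and the 7 markers summed to 44.9 to 136 CPM in P6gonocyte and 9.54 to 14.3 CPM in GFRA1pos libraries. Spermatid transcripts moved the other way, with 5 of 6 markers lower, a sum of 6.61 to 8.75 CPM in P6gonocyte (Prm1 at 0) and 57.2 to 1334 CPM in GFRA1pos libraries. Of 5 spermatocyte markers 1 was higher and 4 lower, with sums of 62.4 to 164.9 CPM in P6gonocyte and 165.7 to 976 CPM in GFRA1pos libraries. Macrophage markers (1 of 3 tested lower, sums of 8.80 to 12.4 CPM in P6gonocyte and 17.1 to 20.9 CPM in GFRA1pos) and endothelial markers (2 of 4 lower, 13.5 to 16.4 CPM in P6gonocyte and 19.8 to 27.1 CPM in GFRA1pos) were also apart in their sums. Among the endothelial markers Pecam1 had the higher mean in P6gonocyte (3.84 CPM, against 2.76 CPM in GFRA1pos). Of 4 tested peritubular myoid markers 1 was higher, and of 7 tested Leydig markers 1 was higher and 1 lower. Without replicate 2 of P6gonocyte 7 sterol genes were higher and 3 lower, and without the 4 libraries highest in spermatid transcripts 8 were higher and 1 lower. The part of the Sertoli, spermatocyte, macrophage, endothelial, myoid and Leydig transcripts in the result was otherwise not tested.

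Among the mevalonate genes, Idi1 encodes the isomerase that makes the activated prenyl unit. It had 61.0, 66.6, 62.6 and 63.6 CPM in P6gonocyte libraries and 31.1, 26.9, 22.8 and 35.4 CPM in GFRA1pos libraries. The groups lay well apart, and the log2 fold change was 1.13 ± 0.14 (SE; adjusted p = 1.83e-05), or 2.18-fold. A share of 17.7% of the 50-base stretches of Idi1 transcripts also occurs in the copy Gm13502, which had no row in the table.

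Hmgcs1, the cytosolic HMG-CoA synthase, had 184, 145, 183 and 186 CPM in P6gonocyte libraries and 132, 74.8, 89.0 and 99.8 CPM in GFRA1pos libraries. The second P6gonocyte library was the lowest of its group and still above every GFRA1pos library. The log2 fold change was 0.82 ± 0.19 (SE; adjusted p = 0.00250).

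Acat2, a cytosolic thiolase that joins acetyl-CoA units, had 105, 93.9, 76.8 and 76.5 CPM in P6gonocyte libraries and 57.8, 59.0, 48.4 and 51.2 CPM in GFRA1pos libraries. All P6gonocyte libraries were above all GFRA1pos libraries, with a log2 fold change of 0.70 ± 0.14 (SE; adjusted p = 0.000647). Its value is uncertain as a gene's own: 39.1% of its 50-base stretches are shared with Acat3, which itself had a log2 fold change of 0.63 ± 0.13 (SE; adjusted p = 0.000850). The other mevalonate genes, Mvk (0.50), Pmvk (-0.01) and Mvd (0.12), did not pass, so 3 of 6 were called at these steps.

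Both prenyl genes were higher. Fdps had means of 105 ± 25.9 CPM in P6gonocyte and 69.6 ± 3.76 CPM in GFRA1pos (SD, n = 4 each; log2 fold change 0.59 ± 0.19, adjusted p = 0.0164). Ggps1, which makes geranylgeranyl diphosphate, had 63.0 ± 9.16 CPM in P6gonocyte and 44.7 ± 3.25 CPM in GFRA1pos (SD, n = 4 each; log2 fold change 0.50 ± 0.17, adjusted p = 0.0295). Both calls rested on single libraries. Without P6gonocyte replicate 2 the adjusted p was 0.0781 for Fdps and 0.0874 for Ggps1, and the Ggps1 call was also lost without P6gonocyte replicate 1 (0.0720) and without GFRA1pos replicate 2, 3 or 4 (0.0518, 0.0789 and 0.0619). Fdps shares 77.4% of its exon bases on the same strand with Gm43738, which had no row in the table.

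From squalene to lanosterol, Fdft1 (0.09), Sqle (0.12) and Lss (0.07) had small log2 fold changes, with adjusted p from 0.428 to 0.757. Sqle, the squalene epoxidase, had 118 ± 4.91 CPM in P6gonocyte and 108 ± 5.54 CPM in GFRA1pos (SD, n = 4 each).

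After lanosterol, 4 of 8 genes were higher. Msmo1, the C4 methylsterol oxidase, had 45.0, 46.6, 45.2 and 41.2 CPM in P6gonocyte libraries and 26.3, 21.5, 22.8 and 17.8 CPM in GFRA1pos libraries. The P6gonocyte libraries were close together and far above the others, with a log2 fold change of 1.01 ± 0.16 (SE; adjusted p = 0.000164).

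Cyp51, the lanosterol 14-demethylase, had 86.4, 105, 94.4 and 84.0 CPM in P6gonocyte libraries and 51.5, 52.6, 55.1 and 44.5 CPM in GFRA1pos libraries. The groups did not overlap and the log2 fold change was 0.86 ± 0.13 (SE; adjusted p = 7.30e-05). A share of 4.2% of its exon bases lies opposite Akap9, itself higher in P6gonocyte at 1.54 ± 0.34 (log2, SE; adjusted p = 0.00161), and the strand setting of the counting is not known.

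Hsd17b7, a 3-ketosteroid reductase of C4 demethylation, had 52.8, 48.8, 52.7 and 53.5 CPM in P6gonocyte libraries and 38.9, 28.6, 38.8 and 24.8 CPM in GFRA1pos libraries. Again no library overlapped (log2 fold change 0.66 ± 0.18, SE; adjusted p = 0.00595, or 0.0536 without the 4 libraries highest in spermatid transcripts). Nsdhl, the sterol dehydrogenase of the same C4 complex, had 79.4 ± 10.0 CPM in P6gonocyte and 57.9 ± 6.14 CPM in GFRA1pos (SD, n = 4 each; log2 fold change 0.46 ± 0.15, adjusted p = 0.0205). Its call was lost without P6gonocyte replicate 1 (adjusted p = 0.0574) or 2 (0.0613), without GFRA1pos replicate 4 (0.0759) and without the spermatid-high libraries (0.133). Sc5d (0.30), Dhcr7 (-0.41, adjusted p = 0.0745), Tm7sf2 (0.06) and Ebp (-0.20) did not pass. Dhcr7 was called lower with upper-quartile scaling (adjusted p = 0.0416), DESeq2 (0.042), limma voom with sample quality weights (0.00198) and only the 2 groups fitted (0.0347). That call was also made with a block for the replicate number (0.0406) and without P6gonocyte replicate 2 (0.0320) or GFRA1pos replicate 4 (0.0481).

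The transcripts of the SREBP factors themselves were not higher in the neonatal cells than in GFRA1pos. Srebf2 had 190.2, 231, 223 and 178 CPM in P6gonocyte libraries and 256, 261, 323 and 241 CPM in GFRA1pos libraries. The P6gonocyte libraries were all below the others, but the log2 fold change of -0.40 ± 0.19 (SE) missed the threshold (adjusted p = 0.106). Srebf2 was called lower by limma voom with sample quality weights (adjusted p = 0.0065) and with only the 2 groups fitted (0.0197). Srebf1 stood at -0.48 ± 0.19 (log2, SE; adjusted p = 0.0528), just outside the threshold. It was called lower with RLE (adjusted p = 0.0392) or upper-quartile scaling (0.0322), DESeq2 (0.0290), limma voom without (0.0473) and with sample quality weights (0.00171), only the 2 groups fitted (0.0164) and without P6gonocyte replicate 2 (0.0467). With a block for the replicate number Srebf1 was also called lower (0.0086). Insig1, itself a classical SREBP target, had 203 ± 16.4 CPM in P6gonocyte and 165 ± 19.4 CPM in GFRA1pos (SD, n = 4 each) with no overlap and an adjusted p of 0.122 (0.0490 with only the 2 groups fitted), and Insig2 (-0.15) and Scap (-0.09) also did not pass.

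The 2 other targets moved in opposite directions. Stard4, a carrier of sterols between membranes, had 47.9, 57.7, 51.9 and 45.1 CPM in P6gonocyte libraries and 29.0, 27.2, 31.8 and 32.9 CPM in GFRA1pos libraries. Every P6gonocyte library was the higher (log2 fold change 0.74 ± 0.16, SE; adjusted p = 0.00114). Lpin1, a phosphatidate phosphatase of lipid synthesis, had 33.6, 28.0, 38.8 and 32.0 CPM in P6gonocyte libraries and 61.7, 64.2, 57.6 and 64.8 CPM in GFRA1pos libraries. Here every P6gonocyte library was the lower, with a log2 fold change of -0.91 ± 0.20 (SE; adjusted p = 0.00156).

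Against all 13 adult libraries together, every P6gonocyte library was above every adult library for 7 of the 26 genes (26.9%): Acat2, Hmgcs1, Idi1, Msmo1, Nsdhl, Insig1 and Stard4. The share among all genes tested was 3.71%. No sterol gene had every P6gonocyte library below every adult library, which held for 6.8% of all genes.

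**Figure D3:**
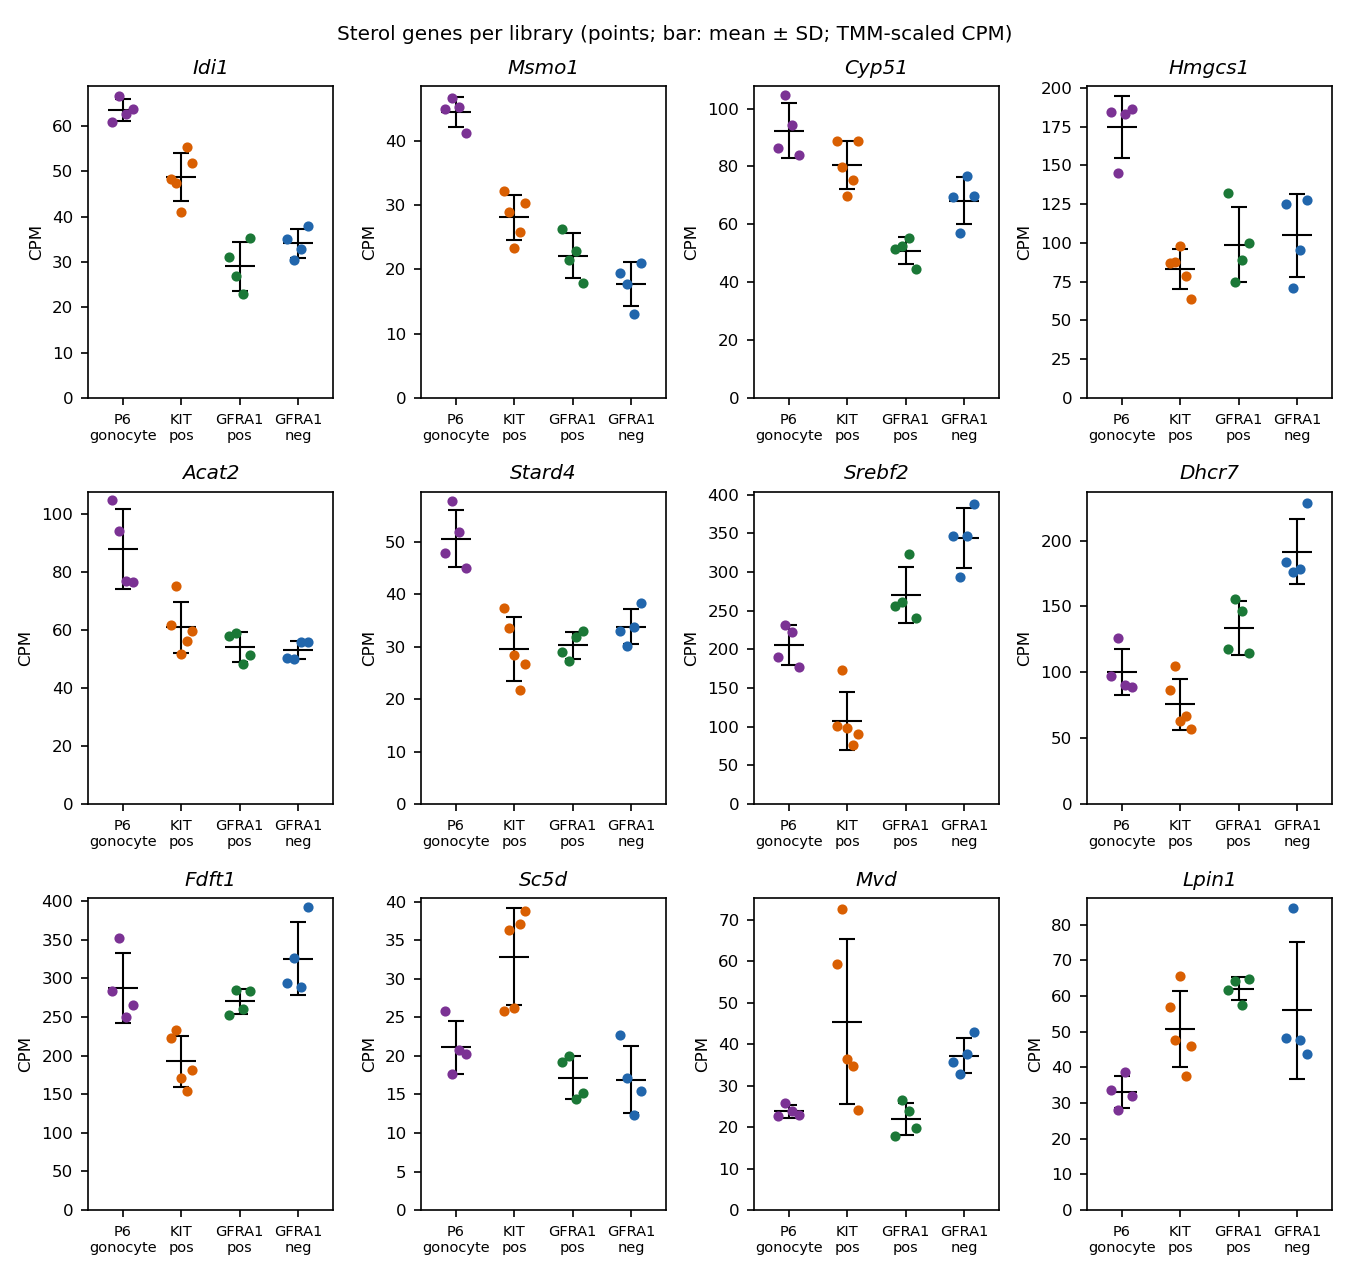
CPM of 12 sterol genes in each library (points) by group, with the mean and SD of the group as bars; each panel starts at 0. The 4 P6gonocyte points lie above every adult point for Idi1, Msmo1, Hmgcs1, Acat2 and Stard4, and the 5 KITpos points lie below every other point for Srebf2 and Fdft1.

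KITpos was compared with each adult Kit-negative group to see how Kit-positive cells differ from them. KITpos cells had lower Srebf2, Dhcr7 and Fdft1 transcripts and higher Sc5d, Idi1, Insig2 and Sqle transcripts than either group. The libraries overlapped for Insig2 and Sqle in both comparisons, and some calls of these genes were lost in alternatives, as given below. Against GFRA1neg, 5 of the 26 genes were higher (19.2%, all genes 22.1%) and 3 lower (11.5%, all genes 23%). Against GFRA1pos, 6 were higher (23.1%, all genes 24.9%) and 5 lower (19.2%, all genes 23.7%). In either direction 30.8% of the sterol genes were called against GFRA1neg and 42.3% against GFRA1pos, below the 45.1% and 48.6% of all genes tested. The comparisons share the KITpos libraries, so their values are given side by side and are not independent.

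The median log2 fold change of the 26 genes was -0.12 against GFRA1neg (all genes 0.03) and 0.13 against GFRA1pos (all genes 0.07). Libraries did not overlap for 6 of 26 genes against GFRA1neg (23.1%, all genes 33.8%) and for 7 of 26 against GFRA1pos (26.9%, all genes 37.2%). Leydig cell transcripts, from a cell that makes steroids out of cholesterol, moved with both comparisons. In each, 5 of 7 tested markers were higher in KITpos, and the 8 markers summed to 24.6 to 130 CPM in KITpos, 14.1 to 26.4 CPM in GFRA1pos and 11.1 to 32.7 CPM in GFRA1neg libraries. Endothelial markers were lower in KITpos, 4 of 4 against GFRA1pos and 2 of 4 against GFRA1neg, with sums of 4.17 to 5.89 CPM in KITpos, 19.8 to 27.1 CPM in GFRA1pos and 13.5 to 17.9 CPM in GFRA1neg libraries. Of 3 tested macrophage markers 2 were lower against GFRA1pos and 1 against GFRA1neg, with sums of 4.50 to 10.1 CPM in KITpos, 17.1 to 20.9 CPM in GFRA1pos and 12.4 to 14.7 CPM in GFRA1neg libraries. The part of these transcripts in the result was not tested. Without the 2 KITpos libraries highest in Leydig transcripts (replicates 1 and 5), 4 sterol genes were higher and 3 lower against GFRA1neg, and 7 higher and 4 lower against GFRA1pos. Without the 4 libraries highest in spermatid transcripts, 4 were higher and 5 lower against GFRA1neg, and 5 higher and 5 lower against GFRA1pos.

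Among the sterol genes the largest log2 fold change in both comparisons was that of Srebf2, which encodes the SREBP of cholesterol synthesis. It had 101, 173, 98.2, 76.4 and 90.4 CPM in KITpos libraries, 256, 261, 323 and 241 CPM in GFRA1pos libraries and 346, 294, 347 and 388 CPM in GFRA1neg libraries. Every KITpos library was below every other library, and replicate 2 was the highest of its group. The log2 fold change was -1.67 ± 0.18 against GFRA1neg (SE; adjusted p = 5.63e-07) and -1.32 ± 0.18 against GFRA1pos (SE; adjusted p = 7.40e-06).

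Dhcr7, the reductase of the last step of one branch, had 86.8, 104, 63.4, 66.9 and 57.2 CPM in KITpos libraries, 118, 155, 146 and 114 CPM in GFRA1pos libraries and 184, 176, 178 and 228 CPM in GFRA1neg libraries. The 3 adult groups did not overlap and lay in that order from low to high. The log2 fold change was -1.34 ± 0.17 against GFRA1neg (SE; adjusted p = 3.15e-06) and -0.81 ± 0.17 against GFRA1pos (SE; adjusted p = 0.000530).

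Fdft1, which commits the pathway to sterols, had 222, 233, 171, 155 and 182 CPM in KITpos libraries, 252, 285, 260.2 and 283 CPM in GFRA1pos libraries and 294, 326, 289 and 392 CPM in GFRA1neg libraries. Every KITpos library was below every other library, with a log2 fold change of -0.76 ± 0.14 against GFRA1neg (SE; adjusted p = 0.000171) and -0.49 ± 0.14 against GFRA1pos (SE; adjusted p = 0.00642). A share of 20.9% of its exon bases lies opposite Ctsb, whose own log2 fold change ran the other way against GFRA1neg, at 0.80 ± 0.14 (SE; adjusted p = 0.000121).

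Sc5d, the desaturase just before Dhcr7, moved the opposite way. It had 25.9, 36.3, 26.2, 37.2 and 38.8 CPM in KITpos libraries, 19.2, 20.0, 14.4 and 15.2 CPM in GFRA1pos libraries and 22.7, 17.2, 12.4 and 15.5 CPM in GFRA1neg libraries. It was the one sterol gene with every KITpos library above every other library (3.85%, against 5.8% of all genes), although the lowest KITpos library, at 25.9 CPM, lay close to the highest P6gonocyte library, at 25.8 CPM. The log2 fold change was 0.95 ± 0.20 against GFRA1neg (SE; adjusted p = 0.000582) and 0.93 ± 0.20 against GFRA1pos (SE; adjusted p = 0.000660). Srebf2 and Fdft1, with every KITpos library the lowest, made up 7.69% of the sterol genes, against 7.79% of all genes.

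Idi1 had 48.3, 47.3, 41.1, 55.3 and 51.8 CPM in KITpos libraries and 35.0, 30.5, 32.9 and 37.9 CPM in GFRA1neg libraries, beside the GFRA1pos values above. All KITpos libraries were above both groups, with a log2 fold change of 0.52 ± 0.13 against GFRA1neg (SE; adjusted p = 0.00349) and 0.74 ± 0.13 against GFRA1pos (SE; adjusted p = 0.000134). KITpos libraries in turn lay below every P6gonocyte library.

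Msmo1 had 32.2, 28.9, 23.3, 25.8 and 30.3 CPM in KITpos libraries and 19.5, 17.8, 13.1 and 20.9 CPM in GFRA1neg libraries. These did not overlap, and the log2 fold change was 0.66 ± 0.16 (SE; adjusted p = 0.00218). Against GFRA1pos it was 0.35 ± 0.16 (SE) with an adjusted p of 0.0753, which missed the threshold. Without KITpos replicate 3 (0.0447) or GFRA1pos replicate 1 (0.0462), Msmo1 was called higher there too. Cyp51, an earlier step, passed in the other comparison only. It had 88.9, 79.9, 69.8, 75.2 and 88.9 CPM in KITpos libraries, clear of every GFRA1pos library, with a log2 fold change of 0.66 ± 0.12 (SE; adjusted p = 0.000168), and against GFRA1neg 0.24 ± 0.12 (SE; adjusted p = 0.113).

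Of the regulators, Srebf1, the SREBP more tied to fatty acid synthesis, had 32.9, 47.3, 44.2, 37.4 and 20.8 CPM in KITpos libraries and 48.1, 56.7, 62.5 and 48.8 CPM in GFRA1pos libraries. The groups did not overlap, by a narrow margin. The log2 fold change was -0.56 ± 0.18 (SE; adjusted p = 0.0156), but the call was lost without GFRA1pos replicate 3 (0.0570), without the spermatid-high libraries (0.0577) and without the Leydig-high KITpos libraries (0.0859). A share of 2.5% of its exon bases lies opposite Rai1, which was also lower, at -1.28 ± 0.19 (log2, SE; adjusted p = 1.74e-05).

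The INSIG genes moved in opposite directions. Insig2 had 26.5 ± 7.67 CPM in KITpos (SD, n = 5), against 16.0 ± 3.29 CPM in GFRA1pos and 17.4 ± 0.994 CPM in GFRA1neg (SD, n = 4 each). Its log2 fold change was 0.61 ± 0.20 against GFRA1neg (SE; adjusted p = 0.0174, or 0.0572 without KITpos replicate 4 and 0.0606 with only the 2 groups fitted) and 0.72 ± 0.20 against GFRA1pos (SE; adjusted p = 0.00520). Insig1 had 119.8 ± 27.0 CPM in KITpos (SD, n = 5) and was lower than in GFRA1pos (log2 fold change -0.46 ± 0.14, SE; adjusted p = 0.0109), and against GFRA1neg it stood at -0.30 ± 0.14 (SE; adjusted p = 0.0987). Insig1 was called lower against GFRA1neg by limma voom with sample quality weights (0.0200) and with a replicate block (0.018). That call was also made without KITpos replicate 2 (0.0418) or 5 (0.0230). Scap differed by -0.01 against GFRA1neg and 0.26 against GFRA1pos, and neither passed. Against GFRA1pos Scap was called higher with a replicate block (0.0351), without KITpos replicate 5 (0.0390) and without the Leydig-high KITpos libraries (0.0257).

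Mvd, the mevalonate diphosphate decarboxylase, had 59.2, 72.5, 36.4, 34.8 and 24.1 CPM in KITpos libraries, a coefficient of variation of 43.7%. It was higher than in GFRA1pos (log2 fold change 1.05 ± 0.24, SE; adjusted p = 0.00124), with overlapping libraries, and stood at 0.29 ± 0.23 (SE; adjusted p = 0.332) against GFRA1neg. Sqle was called higher against GFRA1neg (0.34 ± 0.11, log2, SE; adjusted p = 0.0180) and GFRA1pos (0.32 ± 0.11, log2, SE; adjusted p = 0.0241). Both calls were lost without the Leydig-high KITpos libraries (0.120 against GFRA1neg, 0.151 against GFRA1pos), without the spermatid-high libraries (0.0586, 0.236) and with only the 2 groups fitted (0.116, 0.0628). The call against GFRA1neg was also lost without GFRA1neg replicate 3 (0.0831). The call against GFRA1pos was also lost without KITpos replicate 1 (0.0507) or 5 (0.0513), without GFRA1pos replicate 1 (0.0562) or 4 (0.0593), with RLE (0.0617) or upper-quartile scaling (0.0536), without a count filter (0.0520) and with DESeq2 (0.0532).

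Acat2, Hmgcs1, Mvk, Pmvk, Fdps, Ggps1, Lss, Nsdhl, Hsd17b7, Stard4, Lpin1 and the scarce Tm7sf2 and Ebp passed neither comparison in the main fit. Mvk was just outside against GFRA1pos (log2 fold change 0.57, adjusted p = 0.0507) and was called higher with limma voom (0.0497) and a replicate block (0.0434). Nsdhl was called lower against GFRA1pos with RLE (0.0340) or upper-quartile scaling (0.0406) and DESeq2 (0.0312). Hmgcs1, Lss, Nsdhl and Ebp against GFRA1neg, and Tm7sf2 and Hsd17b7 against GFRA1pos, were called in some alternatives. Hmgcs1, so high in the neonatal cells, had 87.1, 87.4, 98.3, 78.5 and 64.1 CPM in KITpos libraries, with log2 fold changes of -0.33 ± 0.18 against GFRA1neg (SE; adjusted p = 0.144) and -0.25 ± 0.18 against GFRA1pos (SE; adjusted p = 0.269).

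GFRA1pos was compared with GFRA1neg to see what separates the 2 adult Kit-negative populations. Of the 26 sterol genes 2 were lower in GFRA1pos, Cyp51 and Mvd, and none was higher. The share called was 7.69%, against 14.1% of all genes tested, of which 7.3% were higher and 6.84% lower. At an unadjusted p under 0.05 there were 6 genes. The median log2 fold change was -0.19, against -0.04 for all genes, and 17 of 26 values were negative. The matching shares of all genes were not computed, so neither count can be read as a shift of the sterol genes. Libraries did not overlap for 6 genes (23.1%, all genes 23.3%). Sertoli markers moved with this comparison, 2 of 6 tested being lower, with sums of 9.54 to 14.3 CPM in GFRA1pos and 18.7 to 29.7 CPM in GFRA1neg libraries. The sums of endothelial markers (2 of 4 higher, 19.8 to 27.1 CPM in GFRA1pos and 13.5 to 17.9 CPM in GFRA1neg) and macrophage markers (1 of 3 higher, 17.1 to 20.9 CPM in GFRA1pos and 12.4 to 14.7 CPM in GFRA1neg) moved the other way. Single markers of these lists did not all do so. Mean Mrc1 was 9.03 CPM in GFRA1pos and 1.07 CPM in GFRA1neg, but Cd68 was 7.51 and 10.5 CPM. Likewise Kdr was 6.41 CPM in GFRA1pos and 1.00 CPM in GFRA1neg, but Pecam1 was 2.76 and 3.96 CPM. The part of all these transcripts in the result was not tested.

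Cyp51 had 51.5, 52.6, 55.1 and 44.5 CPM in GFRA1pos libraries and 69.3, 57.1, 76.8 and 69.7 CPM in GFRA1neg libraries. The groups lay apart, though the highest GFRA1pos library was close to the lowest GFRA1neg library. The log2 fold change was -0.42 ± 0.13 (SE; adjusted p = 0.0300). Mvd had 17.7, 26.4, 23.8 and 19.8 CPM in GFRA1pos libraries and 35.6, 32.7, 37.7 and 42.8 CPM in GFRA1neg libraries. No library overlapped, and the log2 fold change was -0.76 ± 0.25 (SE; adjusted p = 0.0458).

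Both calls were near the threshold. Leaving out 1 library in turn gave 0 to 5 genes called lower: 5 without GFRA1neg replicate 2, 1 without GFRA1pos replicate 1 or 3 or GFRA1neg replicate 3, and 0 without GFRA1pos replicate 2 or 4 or GFRA1neg replicate 1 or 4. Without the 4 libraries highest in spermatid transcripts none was called, and Cyp51 stood at -0.39 (adjusted p = 0.151) and Mvd at -0.86 (adjusted p = 0.109). DESeq2 called 4 lower and none higher. Just outside the threshold were Dhcr7 (-0.52 ± 0.18, log2, SE; adjusted p = 0.0547), with no overlap, and Mvk, the mevalonate kinase (-0.70 ± 0.24, log2, SE; adjusted p = 0.0590). Both were called lower with DESeq2 (Dhcr7 0.0403, Mvk 0.0411) and limma voom (0.0320, 0.0437). The other 22 genes had adjusted p from 0.102 (Hsd17b7) upward.

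**Figure D4:**
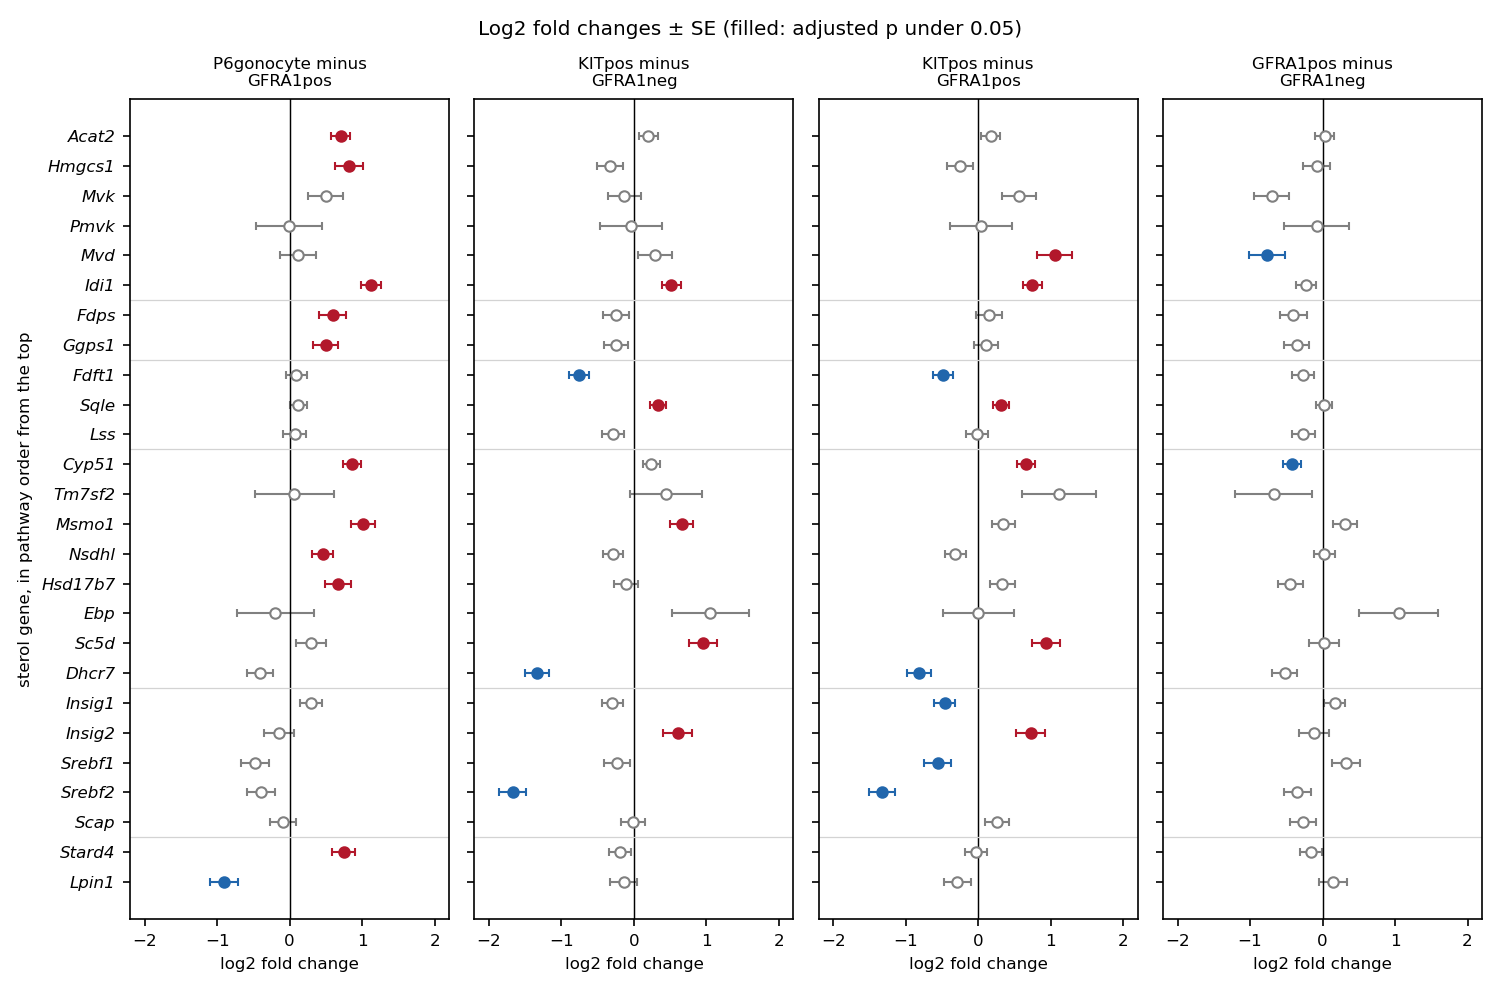
Log2 fold change with its standard error for each sterol gene in the 4 comparisons, in pathway order from the top; filled points passed the test at an adjusted p under 0.05 (red higher, blue lower). The P6gonocyte panel has 10 red points and 1 blue, the KITpos panels have points on both sides with Srebf2 lowest, and the GFRA1pos panel has 2 blue points.

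Genes around the pathway were followed as lists. Beside each count stands the share of the list called in either direction, to be read against the share of all genes tested, which was 39.2% in P6gonocyte against GFRA1pos, 48.6% in KITpos against GFRA1pos, 45.1% in KITpos against GFRA1neg and 14.1% in GFRA1pos against GFRA1neg. The isoprenoid branch enzymes use the prenyl units for protein prenylation, ubiquinone and dolichol. Of 11, KITpos had 6 higher and none lower against GFRA1pos (54.5% called, median log2 fold change 0.34) and 2 higher and none lower against GFRA1neg (18.2%, median 0.39), and P6gonocyte had 4 higher and 1 lower against GFRA1pos (45.5%, median 0.37). Pdss1, a subunit of the synthase of the ubiquinone tail, had 15.4 ± 5.91 CPM in KITpos (SD, n = 5) and 6.76 ± 1.58 CPM in GFRA1pos (SD, n = 4; log2 fold change 1.18 ± 0.27, adjusted p = 0.00134). Pggt1b, a subunit of a protein prenyltransferase, had 35.8 ± 6.61 CPM in P6gonocyte and 16.4 ± 3.12 CPM in GFRA1pos (SD, n = 4 each; 1.12 ± 0.25, log2, SE; adjusted p = 0.00206). None of the 11 was called between GFRA1pos and GFRA1neg (median -0.17).

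Of 9 genes for SREBP cleavage and sterol sensing, 4 were higher and 3 lower in KITpos against GFRA1pos (77.8% called, median 0.55), 2 and 2 against GFRA1neg (44.4%, median 0.19), and 2 were higher in P6gonocyte against GFRA1pos (22.2%, median 0.12). Mbtps2, the site-2 protease that releases SREBP, had 19.5 ± 3.80 CPM in P6gonocyte and 10.4 ± 1.34 CPM in GFRA1pos (SD, n = 4 each; 0.91 ± 0.24, log2, SE; adjusted p = 0.00549). Faf2, a membrane recruiter in protein degradation at the endoplasmic reticulum, was lower in KITpos than in GFRA1neg (-1.37 ± 0.13, log2, SE; adjusted p = 1.06e-07). It was also lower in GFRA1pos than in GFRA1neg (-0.76 ± 0.14, log2, SE; adjusted p = 0.000817), where Erlin1 was the second of 2 of the 9 genes called lower (22.2%, median -0.36).

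The LXR and efflux genes act against sterol surplus. Abca1, the exporter of cholesterol to apolipoproteins, had 157 ± 33.7 CPM in P6gonocyte (SD, n = 4), 85.2 ± 16.0 CPM in KITpos (SD, n = 5), 321 ± 26.6 CPM in GFRA1pos and 325 ± 41.6 CPM in GFRA1neg (SD, n = 4 each). It fell in KITpos against GFRA1neg (-1.93 ± 0.16, log2, SE; adjusted p = 1.92e-08) and in P6gonocyte against GFRA1pos (-1.03 ± 0.17, log2, SE; adjusted p = 0.000161). Abcg1, a second sterol exporter, fell in the same comparisons, by 1.54 and 0.59 on the log2 scale. Of the 7 genes, 1 was higher and 2 lower in KITpos against either group (42.9% called, median -0.34 against GFRA1neg and -0.03 against GFRA1pos), 2 were lower in P6gonocyte (28.6%, median -0.39) and none was called between GFRA1pos and GFRA1neg (median -0.02). The one higher in KITpos was Mylip, an E3 ligase for lipoprotein receptors (1.76 ± 0.32 against GFRA1neg, log2, SE; adjusted p = 0.000174).

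Of 15 genes of sterol uptake, transport and storage, 4 were higher in GFRA1pos than in GFRA1neg and none lower (26.7% called, median 0.02). The endocytic receptor gene Lrp1 led, at 125 ± 16.8 CPM in GFRA1pos and 28.4 ± 6.02 CPM in GFRA1neg (SD, n = 4 each; 2.14 ± 0.27, log2, SE; adjusted p = 2.22e-05), and it had 8.29 ± 3.89 CPM in KITpos (SD, n = 5). Lipa, the lysosomal acid lipase that frees cholesterol from its esters, was higher in GFRA1pos than in GFRA1neg by 0.77 ± 0.25 (log2, SE; adjusted p = 0.0493) and lower in KITpos than in GFRA1pos (log2 fold change -2.10 ± 0.25, SE; adjusted p = 1.72e-06). KITpos had 3 higher and 6 lower against GFRA1pos (60.0%, median -0.37) and 5 and 6 against GFRA1neg (73.3%, median 0.05), with the lipoprotein receptor gene Lrp8 higher against GFRA1neg (1.55 ± 0.32, log2, SE; adjusted p = 0.000565). P6gonocyte had 1 higher and 4 lower (33.3%, median -0.15), Nceh1, a cholesterol ester hydrolase, being the higher (1.19 ± 0.27, log2, SE; adjusted p = 0.00237).

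Of 13 fatty acid synthesis genes, the other branch of SREBP targets, KITpos had 2 higher and 8 lower against GFRA1pos (76.9% called, median -0.67) and 3 higher and 6 lower against GFRA1neg (69.2%, median -0.27). Their summed CPM in KITpos libraries, 921 to 1767, spanned the range of GFRA1pos (1391 to 1627) and GFRA1neg libraries (1412 to 1636). Scd2, a stearoyl-CoA desaturase, had 25.7 ± 5.13 CPM in KITpos (SD, n = 5), against 102 ± 14.5 CPM in GFRA1pos and 114 ± 20.8 CPM in GFRA1neg (SD, n = 4 each). It fell by 1.99 against GFRA1pos and by 2.14 against GFRA1neg on the log2 scale (adjusted p = 1.36e-08 and 7.33e-09). In P6gonocyte 2 of the 13 were higher and 1 lower (23.1%, median 0.04), with Elovl6, a fatty acid elongase, at 1.31 ± 0.37 (log2, SE; adjusted p = 0.00992). In GFRA1pos 3 were higher than in GFRA1neg and none lower (23.1%, median 0.22), among them Scd1 at 1.38 ± 0.29 (log2, SE; adjusted p = 0.00265).

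Of 10 partners and related enzymes, 5 were higher and 1 lower in KITpos against GFRA1neg (60.0% called, median 0.34), 3 and 1 against GFRA1pos (40.0%, median 0.32), and 4 were higher in P6gonocyte (40.0%, median 0.25). Pgrmc1, a haem protein that binds CYP51, had 14.1 ± 0.325 CPM in P6gonocyte (SD, n = 4), 28.1 ± 8.93 CPM in KITpos (SD, n = 5), and 6.31 ± 1.21 CPM in GFRA1pos and 6.74 ± 3.13 CPM in GFRA1neg (SD, n = 4 each). It was higher in KITpos than in GFRA1neg by 2.06 ± 0.28 (log2, SE; adjusted p = 7.11e-06). Erg28, a scaffold of the C4 demethylation enzymes, was higher in KITpos by 0.67 ± 0.13 against GFRA1neg (log2, SE; adjusted p = 0.000272). Lbr and Ebpl were the 2 higher in GFRA1pos than in GFRA1neg (20.0%, median -0.06), Lbr by 0.86 ± 0.13 (log2, SE; adjusted p = 0.000192).

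Oxysterol synthesis genes were scarce: 3 of 6 passed the filter on low counts, and the 6 summed to 9.44 to 15.2 CPM in P6gonocyte, 12.6 to 29.5 CPM in KITpos, 14.3 to 17.8 CPM in GFRA1pos and 21.8 to 23.0 CPM in GFRA1neg libraries. For a gene without a count in a group, the limit set by 3 counts over its libraries was 0.092 CPM in P6gonocyte, 0.085 CPM in KITpos, 0.069 CPM in GFRA1pos and 0.072 CPM in GFRA1neg, for counting error only.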

How the data were processed

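Per the labels' protocols, RNA of the sorted cells was amplified (NuGEN Ovation V2) before TruSeq V2 library preparation and paired-end sequencing, which can distort relative levels. The values the authors deposited are counts: whole numbers per gene, not normalized. Per the submitters' processing notes, the tools were TopHat2 2.0.4, Bowtie2 2.0.0-6, Bowtie, Trim Galore, DESeq and DESeq2 and the build was mm9, with no roles given. The program behind the counts, the gene models and the strand setting are not given in the sources at hand, so reads of overlapping genes on opposite strands cannot be told apart. For GFRA1pos replicate 1 the column is spelled GFP in place of GFR and was read as that sample because no other column was left for its title. Symbols were matched by Entrez number to a RefSeq table of GRCm38.p6 for 23930 of 24013 rows.

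The 17 libraries were fitted together with 1 mean per group in edgeR 4.0.16, run in R 4.3.3, and compared by its quasi-likelihood test ( TMM scaling, filterByExpr, Benjamini-Hochberg adjustment over 15451 genes, adjusted p under 0.05). The common biological coefficient of variation was 0.30. Over 28 pairs of replicates, chi-square values per degree of freedom ran from 3.89 to 46.5, so no pair agreed within counting error. The edgeR test was also run on simulated counts with known fold changes, drawn with the spread estimated in this fit. Its outcome is not given here and lends no support to the results. Exon lengths, overlaps and shared 50-base stretches came from the GRCm38 annotation. Figures were drawn with matplotlib 3.10.9.

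Values in every library were given for up to 8 sterol genes per comparison with the smallest adjusted p and no overlap between the groups; some others were added after their values were seen. From the other lists up to 3 called genes per comparison with the smallest adjusted p and at least 5 CPM in a group could be named. The members and lists were chosen with earlier results of these data known. Alternatives were 2 other scalings (RLE, upper quartile), 2 other filters (none, or 1 CPM in 4 libraries), DESeq2 1.42.0, limma 3.58.1 voom with and without sample quality weights, only the 2 groups fitted, a block for the replicate number, and each library left out. Leaving out the 4 libraries with over 600 CPM of spermatid transcripts, or the 2 KITpos libraries highest in Leydig transcripts, was chosen after seeing the data.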

Additional observations from a re-analysis of the deposited data

Results flagged for a closer look

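Within groups of 4 or 5 libraries, 6 of the 104 combinations of a sterol gene and a group had a library far from the others by Dixon's criterion at 95%, and chance alone gives about 1 in 20. In P6gonocyte replicate 2, Hmgcs1 was low at 144.8 CPM (others 183 to 186 CPM), Hsd17b7 was low at 48.8 CPM (others 52.7 to 53.5 CPM) and Insig1 was high at 227 CPM (others 192 to 198 CPM). That library also had the highest sum of Sertoli markers of its group, and its part in these values was not tested. Srebf2 in KITpos replicate 2 was high at 173 CPM (others 76.4 to 101 CPM). Dhcr7 in GFRA1neg replicate 4 was high at 228 CPM (others 176 to 184 CPM). Lpin1 in GFRA1neg replicate 2, one of the libraries high in spermatid transcripts, was high at 84.6 CPM (others 43.6 to 48.1 CPM).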

How the results depend on the processing

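Of 127 fold changes of single genes, recomputed in 2422 alternatives, 2268 kept their direction and side of the threshold, 93 dropped below it, 61 rose past it and 0 reversed. Sterol genes neither called nor past a minimum size of log2 fold change were left out. The genes of other lists were those called with the smallest adjusted p. A reversal was therefore unlikely from the start. Of the 32 sterol gene calls, 22 held in every alternative run for them, including Srebf2, Dhcr7, Fdft1, Sc5d and Idi1 in both KITpos comparisons and Idi1, Msmo1, Cyp51, Hmgcs1, Acat2, Stard4 and Lpin1 in P6gonocyte. The 10 genes higher in P6gonocyte stayed within 7 to 11 in all alternatives. The genes called lower in GFRA1pos than in GFRA1neg numbered 2, but 1 with RLE scaling, 0 without a count filter, 4 with DESeq2, 4 with limma voom, 6 with sample quality weights, 4 with only the 2 groups fitted, and 0 without the 4 libraries highest in spermatid transcripts, and ran from 0 to 5 with 1 library left out. The median log2 fold change there was -0.14 without a count filter, against -0.19, and ran from -0.25 to -0.15 with 1 library left out. In KITpos against GFRA1neg, 3 rather than 5 genes were higher with only the 2 groups fitted, and 5 rather than 3 were lower without the spermatid-high libraries. With 1 library left out the genes called lower ran from 3 to 5, with 5 without KITpos replicate 2 or GFRA1neg replicate 2. In P6gonocyte against GFRA1pos the 1 gene called lower became 2 with RLE scaling, 3 with upper-quartile scaling, 3 with DESeq2, 2 with limma voom, 4 with sample quality weights and 4 with only the 2 groups fitted. It ran from 1 to 3 with 1 library left out, with 3 without P6gonocyte replicate 2 and 2 without GFRA1pos replicate 4. The cause was not tested. Fitting only the 2 groups also changed which genes passed the filter on low counts, and Ebp was then not tested in the 2 comparisons with GFRA1neg.

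The labels give no pairing by replicate number. Between libraries of the same number, correlations of deviations from the group means ran from -0.419 to 0.49 over the 4 comparisons. Between GFRA1pos and GFRA1neg they were 0.436, 0.49, 0.293 and 0.0652. The last missed the 0.1 asked of every pair, so the main fit used no pairing. These values do not show that pairing was absent, and a shared sort or batch was not tested. The block was fitted over all 17 libraries, KITpos included, so it did not test pairing of GFRA1pos and GFRA1neg alone. With the replicate number as a block, 10 sterol genes were higher and 3 lower in P6gonocyte against GFRA1pos, 9 higher and 5 lower in KITpos against GFRA1pos, 5 higher and 4 lower in KITpos against GFRA1neg, and 0 higher and 3 lower in GFRA1pos against GFRA1neg, where Dhcr7 joined (adjusted p = 0.0257). Depth limits Ebp and Tm7sf2, at 2.92 CPM or less in every group mean.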
